A study of Homo sapiens with 6 samples.

Results

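The transcripts described here carried much ribosome footprint depth ahead of their coding sequence in untreated CHL-1 cells, an established human melanoma line. They are 946 of the 17641 RefSeq messenger rows listed in all 3 condition tables. A row was taken where its summed depth in the parental table was at or above 3187, which is the lower quartile of that table and was met by 14311 rows, and where its 5′ UTR bins held at least 0.5 times the depth of its coding bins. With 1 row standing for each gene, and each row without a gene name standing for itself, there were 697 members among 7972 eligible genes (8.74%). The members were thus chosen by measured values, the parental 5′ UTR and coding depths, so parental ratios are given as a description only.

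The tables come from 6 ribosome profiling libraries, in which fragments shielded by ribosomes are sequenced, in 3 groups of 2. The groups were untreated parental cells, CHL-1 cells in which SNORD50A/B, small nucleolar RNA genes, had been edited by CRISPR (how many clones were used was not found in the labels), and cells treated for 20 minutes with 10 mM AZC, which resembles proline, and 20 µM of the proteasome inhibitor MG132. Ribosomal RNA removal is labelled for 1 library of each group, and all cells were lysed in a cycloheximide buffer. The 3 tables are called parental, CRISPR and treated below, and where 3 values stand in a row they are given in that order. Each group has 1 table, so no spread between replicates exists and each difference is between single tables with no test. Summed depth, in units of 1000000 bases, was 473.7, 586.5 and 367.3. Of 9 melanocyte and neural crest markers 6 were listed in all 3 tables (MITF, SOX10, MLANA, DCT, S100B and S100A1), with a summed normalised depth of 476.02 to 505.99, while PMEL, TYR and TYRP1 were not among the listed rows. Of 15 keratinocyte, fibroblast, immune and endothelial markers KRT10 and LYZ were listed, at 11.6 or less per cell type. Of the 6 melanocyte and neural crest markers listed, 3 met the parental depth minimum. KRT10 met it and LYZ did not.

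As background, ribosomes scan from the cap of a messenger to a start codon, and many messengers carry a start codon with a short reading frame upstream of the main one. Translation of such upstream reading frames usually keeps the main protein low. In the integrated stress response, phosphorylation of the initiation factor eIF2 lets ribosomes pass the inhibitory upstream frames of ATF4 and related messengers, so that their main frames are translated more. Footprints in a 5′ UTR can come from such frames, and they can also stem from reads that a table assigns to the 5′ UTR for other reasons.

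The RefSeq sequence at the gene start is shown for members of both kinds found below, because how often an ATG stands there differed between them. The genes ATF4, DDIT3, SLC35A4, AMD1 and CDKN2C are members whose 5′ UTR depth stood apart from their coding depth, and RPL13A, RPS13, EIF4H and NDUFAB1 are members whose 5′ UTR bins repeated it. Each window has 30 bases from build GRCh38.p14, 5′ to 3′ on the strand of the gene, with the first ATG in capitals. The gene start need not be the start of the listed transcript. Whether an ATG shown lies upstream or is the start codon of the main frame was not looked up.
ATF4 (chr22:39520574-39520603, plus strand): gcccgcccacagATGtagttttctctgcgc
DDIT3 (chr12:57520465-57520494, minus strand): gcactgagcgtatcATGttaaagatgagcg
SLC35A4 (chr5:140564832-140564861, plus strand): tcggcggggaagATGgcggatgacaaggtg
AMD1 (chr6:110874785-110874814, plus strand): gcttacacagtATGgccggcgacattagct
CDKN2C (chr1:50960756-50960785, plus strand): aaccagactgccATGgtagacatgggagag
RPL13A (chr19:49487618-49487647, plus strand): cggctgccgaagATGgcggaggtgcaggta
RPS13 (chr11:17077624-17077653, minus strand): atcgccgccatcATGggtcgcatgcatgct
EIF4H (chr7:74174372-74174401, plus strand): cggagacggcaaATGgcggacttcgacacc
NDUFAB1 (chr16:23596273-23596302, minus strand): gttggcgtagccATGgcgtctcgtgtcctt
In ATF4 the ATG was followed in frame by TAG after 1 codon, counting the ATG, and in AMD1 by TAG after 6 codons. In the other 7 windows shown no stop codon followed in frame within the first 50 bases of the gene.

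In part of the member rows the 5′ UTR bins largely repeated the row's own coding depth, or a leading part of it. This was so in all 3 tables in 364 rows (38.5%), standing for 306 genes. The repeat share measures such a repeat. The coding depth was laid into the 5′ UTR bins at the scale and start that matched best in the parental table, the same scale and start were then applied to the other tables, and the share is the depth in common over the larger of the summed depths. A row counted as a repeat at a share of 0.7 or more in all 3 tables, a measure and limit chosen after the data were seen. The lowest share of the 3 tables was below 0.5 in 545 member rows and between 0.5 and 0.7 in 37. It was between 0.7 and 0.8 in 47, and 0.8 or more in 317. Among 9589 other eligible rows with a 5′ UTR depth of at least 90 in each table, 11.3% met the same limit.

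**Figure D1:**
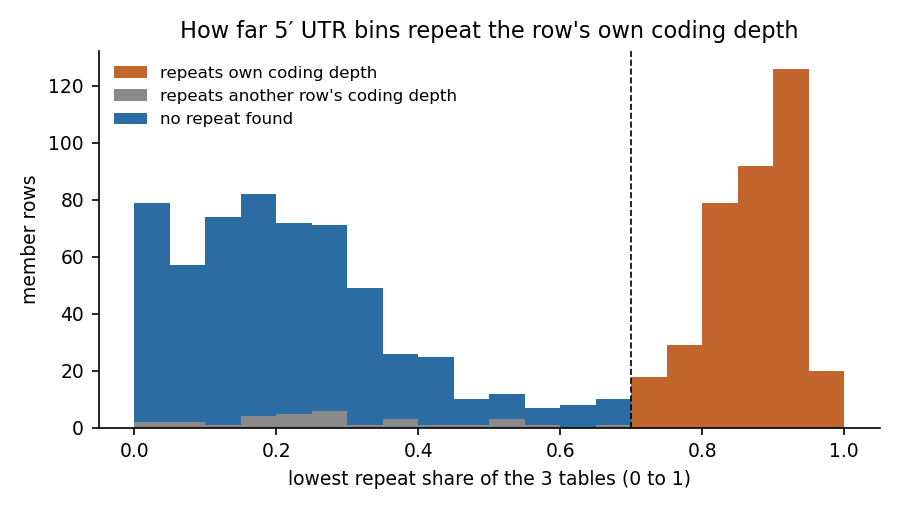
Stacked histogram of the repeat share of 946 member rows, the lowest value of the 3 tables on the x axis and the number of rows on the y axis, with the limit of 0.7 as a dashed line. Rows pile up on either side of the limit, with 37 rows between 0.5 and 0.7.

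SET, a histone chaperone, is an example of a close repeat. Its 5′ UTR to coding ratio was 1.01, 1.01 and 1.01, and its repeat share was 0.962, 0.960 and 0.956. Its normalised coding depth (depth per 1000000 of the table) was 301.06, 343.15 and 122.82, and its 5′ UTR depth 303.08, 345.97 and 124.00, so both moved together. EIF4H, a partner of the eIF4A helicase, had ratios of 1.02, 1.04 and 1.05. CD63, a tetraspanin of late endosomes, had 1.03, 1.03 and 1.03, and TMED9, a cargo receptor of the early secretory pathway, 1.08, 1.06 and 1.07. Of the 306 genes 105 had a parental ratio from 0.9 to 1.1, with 112 in the CRISPR and 113 in the treated table.

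**Figure D2:**
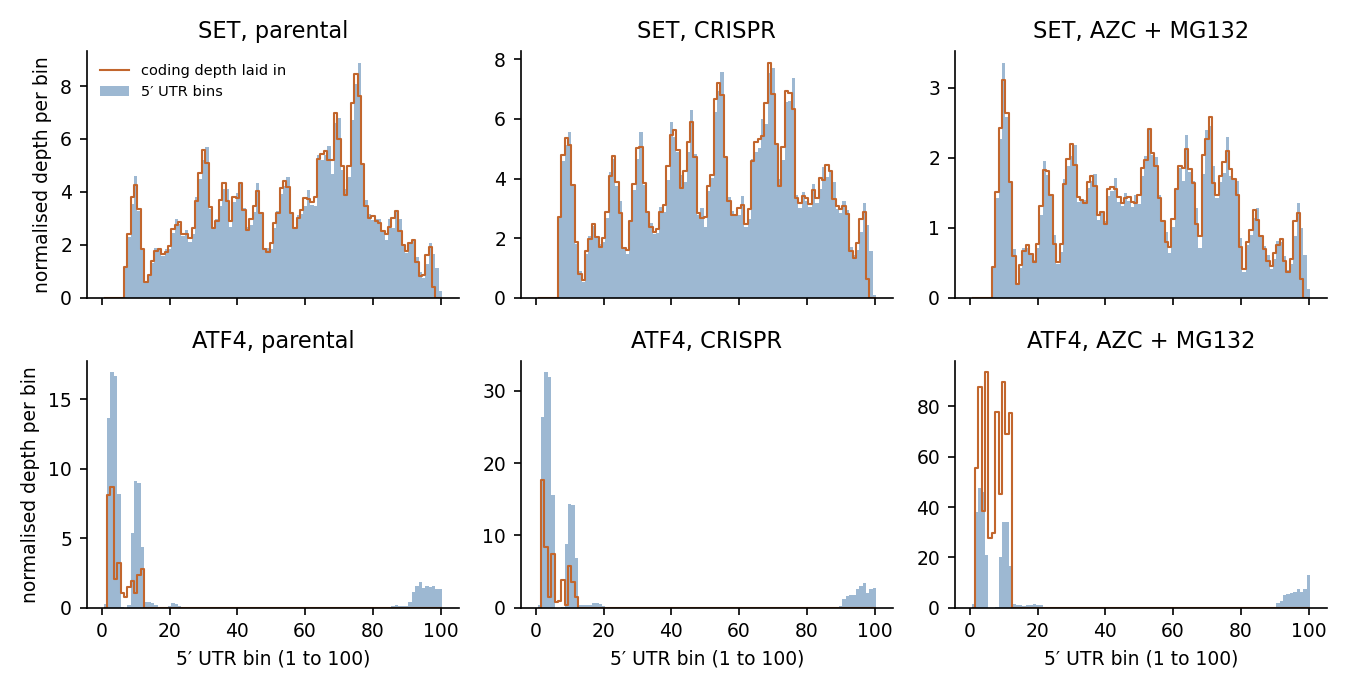
Normalised depth per 5′ UTR bin (bars) of SET and ATF4 in the 3 tables, with the coding depth of the same row laid into the bins at the scale and start fitted in the parental table (line). For SET the line follows the bars in each table; for ATF4 the bars stand in bins 1 to 20 and in the last 10 bins, and the line does not follow them.

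In 286 of the 306 genes the laid-in coding depth began within the first 20 of the 100 bins. In 99 genes it ran to its end within the 5′ UTR bins, and in 207 it was broken off at bin 100. The first kind had median ratios of 1.04, 1.03 and 1.05, and the second 0.669, 0.680 and 0.759. The fitted scale had a median of 1.65 coding bins per 5′ UTR bin over the 306 genes. It was 66 in H4C13 and 52.3 in H2BC8, so their coding depth fell into few 5′ UTR bins. In such genes a match needs little more than like summed depths. The tables give no length for a 5′ UTR, and why coding depth appears there was not tested.

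The sequence at the gene start, which was not used to find the repeats, differed between the kinds. An ATG was searched on the strand of the gene in the first 50 bases after the RefSeq gene start. It was present in 198 of 255 matched genes with a repeat (77.6%), in 88 of 299 without one (29.4%), in 32.6% of 6007 eligible genes that were not members and in 40.7% of all 27305 promoters of the RefSeq table. The median position of that ATG was 23 bases from the start in genes with a repeat and 21 in those without. A stop codon followed in frame within the 50 bases in 10 of the 198 genes with a repeat (5.05%) and in 25 of the 88 without (28.4%). The search did not separate an upstream ATG from the start codon of the main frame. A match is a description of these letters and no evidence of translation from them.

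**Figure D3:**
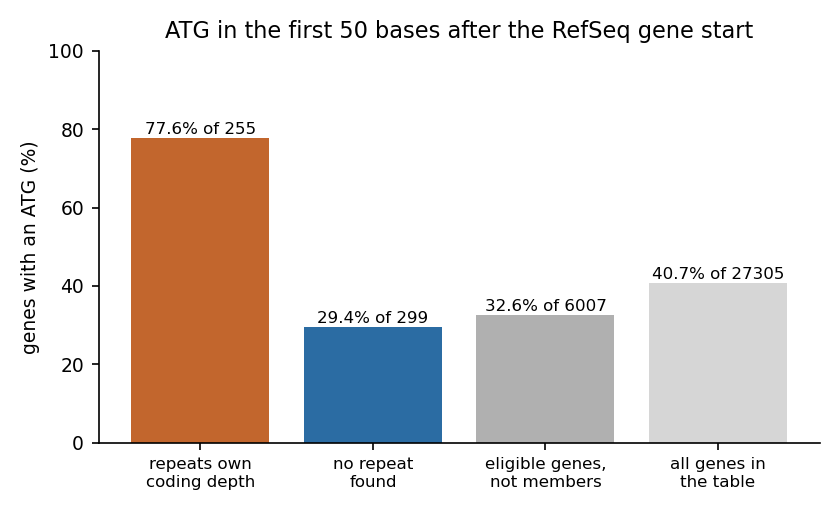
Percent of genes with an ATG in the first 50 bases after the RefSeq gene start, by kind of gene, with the number of matched genes written on each bar. The bar of members that repeat their own coding depth stands at 77.6%, the other 3 between 29.4% and 40.7%.

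Ribosomal protein and histone genes were among those with a repeat. Of 82 eligible cytosolic ribosomal protein genes 14 were members (17.1%, against 8.74% of all eligible genes) and each was a repeat, among them RPL7, RPL23A, RPL13A and RPS13. RPL7 had ratios of 0.656, 0.648 and 0.671, and RPL13A 0.628, 0.537 and 0.699. Of 77 mitochondrial ribosomal protein genes 13 were members (16.9%), also all repeats. Of 39 histone genes 19 were members, 17 of them repeats, and H4C14 had ratios of 1.101, 1.102 and 1.096. Histone copies are near identical and can share reads, as H3C14 and H3C15 show with the same ratios of 0.645, 0.660 and 0.835. By symbol start, 94 genes were grouped as respiratory chain and ATP synthase genes, assembly factors such as NDUFAF3, NDUFAF8 and SDHAF2 included. In this group, named after values were seen, 23 were members, 17 of them repeats, NDUFAB1 with 0.777, 0.781 and 0.825. Of the 12 deepest member rows 10 were repeats, all from histone or ribosomal protein genes, and the other 2 had no gene name.

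In a further 18 genes the 5′ UTR bins repeated the coding depth of another row. For 15 genes it was another row of the same gene, and for 3 a row of an overlapping or neighbouring gene. PIGY repeated PYURF, TAF9 repeated AK6 and GDF1 repeated CERS1. The gene spans of each pair overlap or lie within 1000 bases of each other. The depth in the 5′ UTR bins of the first follows the coding depth of the second. Why it does was not tested.

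No repeat was found in the other 373 genes (353 named), and most of the account below is about them. For the 20 without a name only a repeat of their own coding depth was searched, and none of another row's. Their median ratio was 0.761, 0.827 and 1.12, against 0.0603, 0.0655 and 0.119 over all eligible genes. A ratio of 0.5 or more in the CRISPR table, which the choice of members did not use, was seen in 270 of the 338 above the depth minimum there (79.9%), where the share over all genes was 9.51%. In the treated table it was seen in 301 of 329 (91.5%), with 13.9% over all genes. Over all 697 members the counts were 548 of 651 and 599 of 638. Of the 373 genes 236 were at 0.5 or more in every table, so the high 5′ UTR depth of most of them was found again in libraries that did not choose them.

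In 23 genes the 5′ UTR depth was at least 2 times the coding depth in each table, of 296 with a ratio in all 3. They include the phosphatase genes PTP4A1, with ratios of 2.65, 2.87 and 2.02, and PTP4A2, with 3.66, 3.39 and 12.6. The zinc finger gene ZNF146 had 2.23, 2.80 and 3.98, and MKKS, a chaperonin-like protein, 10.1, 5.40 and 12.6. MFSD11, a gene of the major facilitator family, had 10.7, 9.90 and 14.9. CDKN2C, an inhibitor of cyclin-dependent kinases, had 15.0, 58.2 and 6.68, with a coding depth of only 373 in the CRISPR table, against the floor of 90 set for a ratio. Except for CDKN2C, which the rule for named genes takes, these were picked after their values were seen.

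Unnamed rows carried a large part of the depth. The 28 member rows without a gene name held 34.8% of the 5′ UTR depth of all members in the parental table, with 27.9% and 40.7% in the others. The row NM_001190452 alone held 25.8%, 20.9% and 29.5%. Its normalised 5′ UTR depth was 9292, 6991 and 15345, and bin 36 was the highest in each table. NM_001190489 followed with 2270.1, 1502.2 and 4593.2.

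Some messengers known for upstream reading frames were members, and none of these was a repeat. Of 13 stress messengers written down, 11 were eligible and 6 were members (54.5%, against 8.74% of all eligible genes), which were ATF4, ATF5, DDIT3, IFRD1, SLC35A4 and BACE1. Of 12 other messengers known for such frames, 10 were eligible and 3 were members, AMD1, AZIN1 and MIEF1. The lists were chosen with earlier results of these data known. Of the non-members of the stress list IBTK was nearest with ratios of 0.437, 0.521 and 0.634, followed by PPP1R15B with 0.420, 0.323 and 0.511.

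ATF4, the transcription factor that drives the stress response, had the most 5′ UTR depth of the first list in each table. Its normalised 5′ UTR depth was 101.11, 178.33 and 332.49, and its coding depth 33.5, 51.8 and 691.92. The ratio was 3.01, 3.44 and 0.481, low only in the treated table. Both quantities were highest there, the coding depth by more. The 5′ UTR depth stood in blocks: the first 20 bins held 84.6%, 86.9% and 80.8% of it, the last 10 bins 13.7%, 12.8% and 18.6%, and bins 21 to 90 held 1.70%, 0.298% and 0.592%. Bin 3 was the highest in each table.

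DDIT3, a transcription factor downstream of ATF4 that promotes cell death, had 5′ UTR depths of 4.88, 5.94 and 23.7 and coding depths of 1.90, 4.08 and 29.0. Its ratio was 2.57, 1.46 and 0.816, lowest in the treated table, and its 6 rows were all members with ratios of 2.45 to 2.57 in the parental table. ATF5, a relative of ATF4, had 5′ UTR depths of 13.7, 9.43 and 19.4, coding depths of 8.18, 4.36 and 21.8, and ratios of 1.68, 2.16 and 0.887. Its last 10 bins, next to the coding sequence, held 32.8%, 29.8% and 24.7% of its 5′ UTR depth, unlike DDIT3, where they held none in any of the 3 tables. IFRD1, a co-regulator of transcription, had 5′ UTR depths of 13.8, 27.4 and 26.3, coding depths of 21.5, 28.7 and 85.1, and ratios of 0.644, 0.952 and 0.310. The other 3 rows of IFRD1 were not members, with parental ratios of 0.0328, 0.0576 and 0.427.

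SLC35A4 is a nucleotide sugar transporter relative whose upstream frame is known to encode a small protein. Its 5′ UTR depth was 12.02, 13.8 and 18.3, and its coding depth was 0.796 in parental cells, near 0 in the CRISPR line and 4.42 after treatment. The ratio was 15.1 in the parental and 4.15 in the treated table, and none is given for the CRISPR table, where the coding depth was below the floor. BACE1, the beta-secretase of neurons, went the other way with ratios of 0.950, 0.796 and 2.09. It lay below the depth minimum in the CRISPR table, with 5′ UTR depths of 5.25, 1.80 and 6.34, and was not compared.

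**Figure D4:**
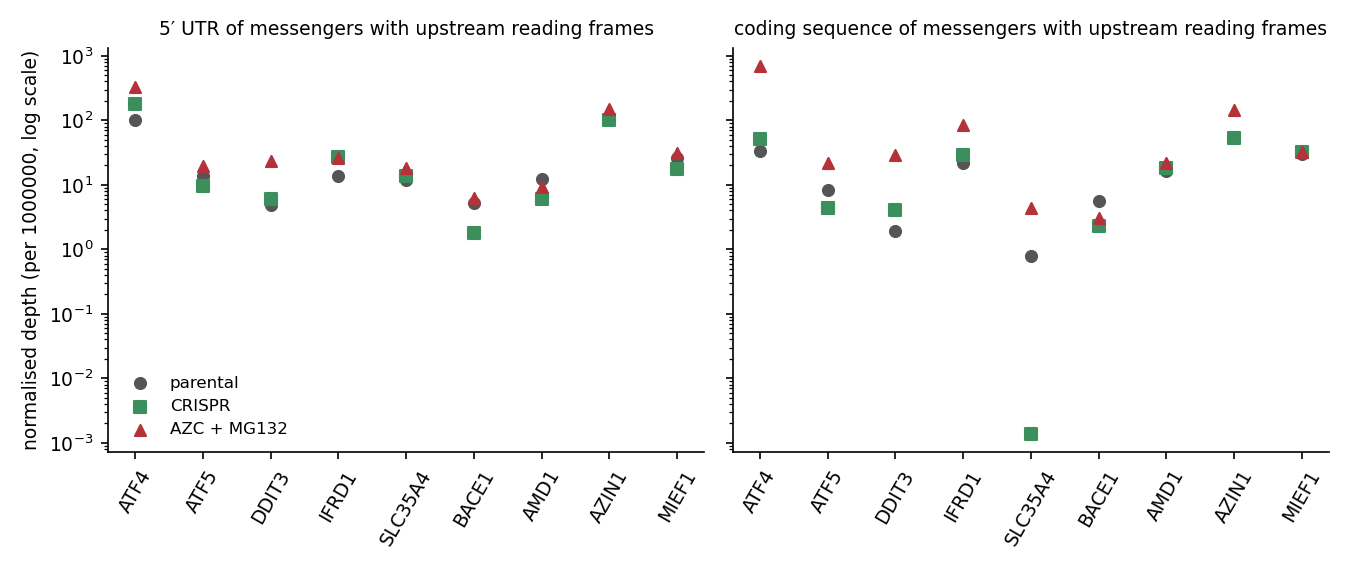
Normalised depth of the 5′ UTR (left) and of the coding sequence (right) of 9 member genes known for upstream reading frames, on a log axis, with 1 marker per table. Coding depth of ATF4, ATF5, DDIT3, IFRD1 and SLC35A4 is highest in the treated table (AZC + MG132), and the SLC35A4 marker of the CRISPR table is a depth near 0.

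The polyamine genes AZIN1 and AMD1 differed in direction between the treated and CRISPR tables, and both had a lower ratio in the treated than in the parental table. AZIN1, which protects ornithine decarboxylase from degradation, had 5′ UTR depths of 104.15, 100.3 and 151.88, coding depths of 53.4, 53.4 and 143.92, and ratios of 1.95, 1.88 and 1.06. AMD1, the decarboxylase that supplies aminopropyl groups for spermidine, had 5′ UTR depths of 12.1, 6.07 and 9.15 and coding depths of 16.4, 18.1 and 21.4, with ratios of 0.739, 0.335 and 0.427. In AMD1 the first 20 bins held 90.9%, 75.9% and 81.0% of the 5′ UTR depth, and bin 10 was the highest in each table. MIEF1, an adaptor of mitochondrial fission, had ratios of 0.882, 0.537 and 0.964. BTG1, an antiproliferative factor and the only member of 15 eligible immediate early genes, had 0.545, 0.711 and 1.08.

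The treated and CRISPR tables, neither of which chose the members, were compared over genes above the depth minimum in all 3 tables with both depths at 90 or more. The split into members with and without a repeat did use both tables, so the shares of each kind depend in part on it. Over all 5876 such genes the log2 ratio of ratios (treated against CRISPR, pseudocount 0.5) had a median of 0.66, with 35.7% of genes 2-fold or more higher and 3.78% 2-fold or more lower. The 298 members without a repeat had a median of 0.41, 67 were higher (22.5%) and 24 lower (8.05%), so a smaller share of them was higher, and a larger share lower, than among all genes. The 290 with a repeat had a median of 0.06, with 4 higher and 1 lower. A repeat needed a share of 0.7 or more in each table, so small changes follow in large part from that definition. Over all 603 members compared the median was 0.13, with 74 higher and 26 lower.

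**Figure D5:**
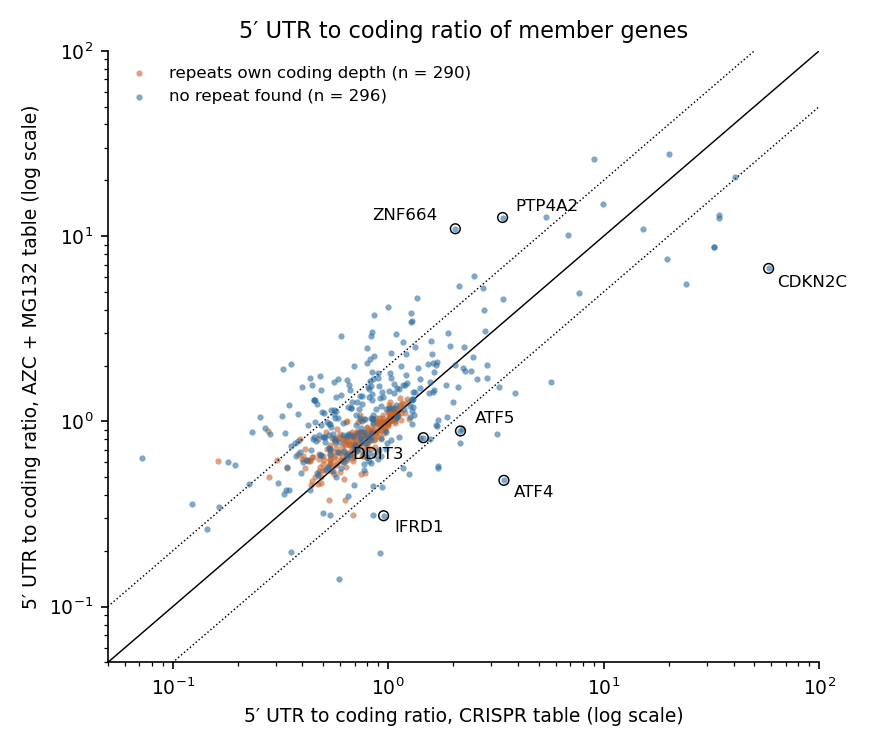
5′ UTR to coding ratio of member genes in the CRISPR table (x) and the treated table, AZC + MG132 (y), log axes, with the line of equal ratios and dotted lines at 2-fold. Genes with a repeat lie along the line, in large part by the definition of a repeat. ATF4, ATF5 and IFRD1 lie below the lower dotted line, and 2 rows with a ratio of 100 or more are outside the axes.

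Among the 24 genes without a repeat that were lower, CDKN2C had the lowest log2 value, -3.12, followed by ATF4 at -2.84. BTN3A1, a butyrophilin, was at -2.24, WDR83, a scaffold of MAP kinase signalling, at -2.12, NEK1, a kinase of cilia and DNA repair, at -2.06, IFRD1 at -1.62 and ATF5 at -1.29. DDIT3 was at -0.83. Of the 4 members of the first list that could be compared, all 4 were below 0 and 3 were 2-fold or more lower, while the 5 eligible non-members of that list had a median of 0.94 and 1 was 2-fold or more higher. Without the 5′ UTR and coding bins around the start codon ATF4 was at -3.72 and ATF5 at -4.65. With the values as deposited WDR83 was at -1.01, and ATF5 at -0.96 was short of 2-fold. Several of these values rest on sparse coding depth in the CRISPR table. There it covered 9 of 200 coding bins in WDR83, 18 in ATF5, 26 in NEK1, 34 in CDKN2C and 41 in BTN3A1. It covered 74 in DDIT3, 151 in IFRD1 and 160 in ATF4. The coding depth of WDR83 was 0.408 in the CRISPR table, against 2.14 in the parental and 1.76 in the treated table.

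Among the 67 genes that were higher, AP5M1, an adaptor subunit, was at 3.13 and EIF4EBP2, a repressor of the cap-binding factor eIF4E, at 2.56. IRF3, a transcription factor of the interferon response, was at 2.52, ZNF664 at 2.42, TMEM184C at 2.26, JTB at 2.12 and PTP4A2 at 1.89. With the values as deposited EIF4EBP2 was at 1.23 and ZNF664 at 1.42, both still past 2-fold. AP5M1 was high through a 5′ UTR depth of 0.540 in the CRISPR table, against 2.93 in the parental and 7.71 in the treated table.

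The 2 sets were picked by the ratio between these same 2 tables, so opposite moves of the depths follow in part from that choice. In the 67 higher genes the normalised coding depth had a median log2 change of -0.93 and lay below the CRISPR table in all but 6. The 5′ UTR depth of these genes had a median of 0.59. Over all genes compared the medians were -0.13 for the coding and 0.55 for the 5′ UTR depth. The coding depth of PTP4A2 was 15.8 in the CRISPR and 1.71 in the treated table, and that of ZNF664 was 8.01 and 0.897. In the 24 lower genes the coding depth had a median of 1.44 and was above the CRISPR table in 23, while the 5′ UTR depth had a median of -0.04. In both sets the median change of the coding depth was the larger in size.

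Over all members without a repeat the 5′ UTR depth had a median log2 change of 0.30 (all genes compared, 0.55) and the coding depth -0.11 (all genes, -0.13). The 5′ UTR depth was 2-fold or more higher in 44 of 298 (14.8%, with 31.3% of all genes) and lower in 11 (3.69%, with 5.57%). The coding depth was 2-fold or more higher in 31 (10.4%, with 2.3% of all genes) and lower in 40 (13.4%, with 6.84%). The members had less depth than other genes, with a median parental summed depth of 8733 against 15026 over all genes compared, and its part in the wider spread was not tested. In the treated table depth lay closer to the start codon in general: the mean of the first 20 coding bins over that of all 200 had a median of 1.47 over all genes compared, 1.39 in members without a repeat and 1.31 in those with one, against 1.01, 1.23 and 0.851 in the CRISPR table.

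Against the parental table the choice of members used one side, so nothing is read from the counts. The treated table gave a median of 0.40 over 296 members without a repeat, with 52 higher (42.5% of all genes were) and 14 lower (1.94% of all genes). ATF4 was at -2.65, SLC35A4 at -1.86 and DDIT3 at -1.65, and JTB was at 2.72. With the values as deposited SLC35A4 was at -0.81, short of 2-fold. The CRISPR table gave a median of -0.01, with 22 higher (15% of all genes) and 25 lower (10.2% of all genes). RNF41, a ubiquitin ligase, was at 1.80 and CIAO2A, an iron-sulfur assembly factor, at 2.17. PHYH, a peroxisomal hydroxylase, was at -2.10. These comparisons share tables, so the same gene can stand high in 1 and low in another through a single table.

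Within the 5′ UTR, a smaller part of the depth of members without a repeat lay next to the coding sequence than in all genes compared. In the CRISPR table the last 10 bins before the coding sequence held 6.45% of the 5′ UTR depth at the median, against 16.0% over all genes, and 6.08% against 13.6% in the treated table. At least 50% of the depth lay in these bins in 10 of 302 members without a repeat and in 1149 of 5653 of all genes in the CRISPR table, and in 2 and 716 in the treated one. At the median 48 of 100 bins were covered in the CRISPR table (all genes, 37) and 64.5 in the treated table (56). The parental values, which chose the members, are a description only, with 7.25% in the last 10 bins (all genes, 16.9%) and 63 bins covered (52). In each table both measures can depend on how much 5′ UTR depth a gene has, for which members were chosen. The part of that choice was not tested. The highest bin was within 2 bins of the same place in the treated and CRISPR tables for 41.1% of these members (all genes, 37.4%), in the treated and parental tables for 42.4% (42%) and in the CRISPR and parental tables for 42.1% (39%), close to the shares of all genes.

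In some genes, picked for this after their values were seen, the place was the same to the bin. The highest bin of CDKN2C was 52 in all 3 tables, that of AZIN1 62 and that of BTG1 23, and that of PTP4A1 was 69 or 70. PTP4A2 did not: its highest bin was 22, 22 and 13, and the first 20 bins held 8.48%, 9.18% and 38.0% of its 5′ UTR depth.

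Another row of the same gene was listed for 201 of the 353 named genes without a repeat, and in 131 of them such a row was eligible and not a member, as in IFRD1. The 5′ UTR depth of these genes thus depends on which transcript is meant. The span of the gene overlapped that of another protein-coding gene in 31.2% of the 353, in 28.2% of the 298 named genes with a repeat and in 24.4% of 7178 non-members, on either strand. Since footprints can belong to an overlapping transcript, the part of such overlaps was not tested.

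By gene family, with 8.74% of all eligible genes being members, 12 of 169 zinc finger genes (7.10%) were, all without a repeat, with ratios of 0.571 to 2.67 in the parental and 0.544 to 10.9 in the treated table. Of the 9 that could be compared 3 were 2-fold or more higher in the treated against the CRISPR table and 0 lower, near the 35.7% and 3.78% of all genes. Solute carriers gave 12 of 125 members (9.60%), 11 without a repeat, among them SLC35A4 and SLC6A8, the creatine transporter, which was at a log2 value of -1.49 in the same comparison. MAP kinases gave 5 of 23 (21.7%), 2 of them with a repeat, and UBE2 genes 5 of 29 (17.2%), 3 of them with a repeat. TRIM genes gave 3 of 25 (12%), 2 with a repeat, and TMEM genes 9 of 82 (10.98%), 4 with a repeat. Protein phosphatases gave 3 of 37 (8.11%), of which 1 repeated its own coding depth and 1 that of another row. Genes whose symbols start with EIF or EEF gave 3 of 62 (4.84%). These were EIF4H and EEF1AKMT2, both with a repeat, and EIF4EBP2 without one. None of 33 SRSF and HNRNP genes, 7 KLF genes and 2 HOX genes was a member.

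Of the 697 member genes 608 were above the depth minimum in all 3 tables, with 46 below it in the CRISPR and 59 in the treated table. The coding depth was below the floor of 90 in 7 genes in the parental and 5 in each of the other tables, among them ABCB5 and CC2D2B, with coding depth near 0 in each table. In 9 genes at least 0.5 of the parental depth lay in the 3′ UTR. At the ratio limit, rows of SF3B1 (0.5002), TIMM21 (0.5002) and RAB24 (0.501) were just inside and rows of KAT8 (0.4998), SCOC (0.4997) and TIMM17A (0.4996) just outside. At the depth limit, rows of BBIP1 (3198), RBCK1 (3198) and DDIT3 (3200.1) were just inside and rows of ERCC8 (3185), GEMIN7 (3183) and ASB7 (3173) just outside. Another row of KAT8 and of SCOC was a member.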

How the data were processed

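The deposited values are on a log2 scale. Per the file headers each table has 400 bins per RefSeq row, and the authors' values were read, from the numbers themselves, as log2(x + 1) of summed base depth with 2 decimals; bins 1 to 100 were taken as 5′ UTR, the next 200 as coding and the last 100 as 3′ UTR. The submitters' processing notes name Bowtie2, TopHat2 and hg19; for versions, and for how a group's libraries were joined, the sources used here give nothing. Summary rows, the last 3 of each table, were left out. Depth is 2 to the power of the value minus 1, and in coding bins the deposited value of the row above was subtracted. Ratios were called past 2-fold at a log2 size of 1. Names, gene spans and sequences came from RefSeq tables of GRCh38.p14, used with no hg19 coordinates. Genes named are the 12 deepest members, the 6 largest rises and falls of each comparison, the first list and those at the limits; other genes were picked after their values were seen, and some are not reported here. Members and lists were chosen with earlier results of these data known. Protein length was not analysed here. Steps were tested on simulated data. Alternatives were tried as given in the closing section. Python 3.11.15, numpy 2.4.6, pandas 2.3.3 and numba 0.67.0 were used.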

Additional observations from a re-analysis of the deposited data

How the results depend on the processing

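With a depth minimum 4 times higher there were 283 members, of which 241 were at a ratio of 0.5 or more in the CRISPR table and 247 in the treated (AZC + MG132) one. With only members without a repeat these counts were 270 and 301, fewer by construction. Among members without a repeat, the share with a treated ratio at least 2-fold above the CRISPR ratio was 14.1% with the values as deposited and 11.3% with the higher minimum, when 32.4% and 36.9% of all genes were. The median log2 value of these members stayed between 0.26 and 0.54 over 6 alternatives. With values as deposited there were 548 members in all, and by row 946. A repeat share minimum of 0.6 gave 382 repeats and one of 0.8 gave 317. Scaling by the median ratio, or without the most abundant 1% of rows, moved log2 depths by 0.05 and 0.06. For genes that the naming rule takes, 291 of 323 values under alternatives moved by no more than 1.5-fold. Where the value was 2-fold or more, 18 of 150 values under alternatives were not, and none of the 150 changed sign. Sign changes of smaller values were not counted. Of the 18, 15 were with the values as deposited, such as CDKN2C (-0.57) and NM_001190489 (0.24) in the treated against the parental table. No paired analysis was possible because each group has 1 pooled table. Depth is a sum over bases, which one read enters many times, and counting intervals were left out.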
